A study of Ginkgo biloba with 16 samples.

Results

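Class III homeodomain leucine zipper (HD-ZIP III) genes encode plant transcription factors that carry a homeodomain, a leucine zipper and a START lipid-binding domain. In Arabidopsis they guide the formation of procambium and xylem and set the upper side of lateral organs, and their transcripts are cut by the microRNAs miR165 and miR166 at a site in the START coding sequence. In wood, the cambium is the meristem that divides to give xylem inward and phloem outward, and HD-ZIP III genes are known there for their part in xylem formation. The 5 HD-ZIP III genes described here are those that the study names as predicted targets of miR166 and miR165. From these same trees, the study reported these targets as lower in old than in young cambium. They were taken by identifier from the 43911 gene entries of the deposited table, which holds no gene descriptions. *Gb_02083*, *Gb_18240* and *Gb_22761* are named HB-8 in the study, *Gb_10259* is named PHV and *Gb_18245* PHB. ATHB-8, the Arabidopsis gene behind the first name, marks cells that will become vascular tissue, and PHABULOSA (PHB) and PHAVOLUTA (PHV) are adaxial identity genes. The best protein matches that the study lists for its predicted miRNA targets are ATHB-15 of Arabidopsis for *Gb_18240* and *Gb_22761* and HOX32 of rice for the other 3 genes, so the family holds for all 5 while the names of single Arabidopsis genes do not carry over one to one.

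The data are RNA-seq of *Ginkgo biloba* cambium from 9 female trees, 1 library per tree and 3 trees per age group. VC20 holds trees of 15 (A), 20 (B) and 22 (C) years, VC200 trees of 193 (A), 211 (B) and 236 (C) years, and VC600 trees of 538 (A), 553 (B) and 667 (C) years. Small RNA libraries of trees A and B of each group give the miRNA values. The trees were untreated and grew outdoors. The labels name 2 sites, and the methods of the study place all sequenced cambium at one of them, Pizhou. Sampling covered 2 calendar years, and since the year is not given per tree, a difference between age groups cannot be told apart from one of year. Cambium was collected as tangential cryosections, which can hold neighbouring xylem and phloem cells.

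Expression is given as FPKM, fragments scaled to gene length and to library size, with 15732412 to 18811771 fragments per library implied by the values. Among the libraries, VC200C stood apart: its Spearman correlations with the other 8 were 0.830 to 0.887, while the lowest among those 8 was 0.911. The HD-ZIP III fold changes are given with and without it. All 5 HD-ZIP III genes reached 1 FPKM in 3 or more libraries, the filter on low values, and were tested together with 21919 other genes.

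The 5 genes lie on 4 scaffolds of the ginkgo assembly. *Gb_02083* lies on scaffold10919 (plus strand, 519363 to 525014) and has a gene length, as used for FPKM, of 2403 bases. *Gb_18240* lies on scaffold2793 (plus strand, 2653073 to 2774342, gene length 2283) and *Gb_18245* on the same scaffold and strand (4665461 to 4672112, gene length 3567). The 2 are separated by 1.89 Mb that holds 8 gene models. *Gb_22761* lies on scaffold3748 (minus strand, 651971 to 657843, gene length 3042) and *Gb_10259* on scaffold17464 (plus strand, 40815 to 260863, gene length 2559). The loci fall into 2 sizes: *Gb_18240* and *Gb_10259* span 121 and 220 kb, 53.1 and 86.0 times their gene length, whereas *Gb_02083*, *Gb_22761* and *Gb_18245* span 5.65, 5.87 and 6.65 kb. The longer span of *Gb_10259* exceeds that of 96.4% of all gene models. *Gb_22761* and *Gb_10259* each overlap another gene model in position, *Gb_22760* and *Gb_10261*, both listed at 0 FPKM in all libraries. The sources used here do not state how reads shared by near-identical family members were counted, or whether strand was used.

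Across the 9 libraries *Gb_02083* and *Gb_18245* had the highest levels, with means of 36.2 ± 19.1 and 35.4 ± 13.9 FPKM (SD, n = 9). *Gb_22761* followed at 21.0 ± 12.5 FPKM and *Gb_18240* at 16.3 ± 4.25 FPKM. *Gb_10259* was lowest at 3.66 ± 1.86 FPKM, a level that exceeded 26.4% of the tested genes, against 78.4% for *Gb_02083*. Neither *Gb_02083* and *Gb_18245* nor *Gb_22761* and *Gb_18240* differed by more than their spread over trees, and in every library *Gb_10259* had the least of the 5.

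HB-8 gene *Gb_02083* had 38.0, 60.3 and 26.5 FPKM in VC20 (trees A, B and C), 20.7, 46.0 and 5.67 FPKM in VC200 and 46.4, 20.9 and 61.3 FPKM in VC600. The groups overlapped, and the trees within each group differed more than the group means did. *Gb_22761*, also named HB-8, had 28.5, 38.3 and 11.3 FPKM in VC20, 9.37, 29.1 and 2.15 FPKM in VC200 and 19.7, 15.3 and 35.4 FPKM in VC600. Its highest library held 17.8 times the level of its lowest, the widest range of the 5 genes.

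The remaining HB-8 gene, *Gb_18240*, had 16.9, 20.6 and 20.2 FPKM in VC20, 10.9, 15.9 and 8.59 FPKM in VC200 and 15.6, 17.8 and 20.6 FPKM in VC600. It was the steadiest of the 5, with a highest library 2.40 times the lowest, and the only one whose VC200 values all lay below every VC20 value. The gap between the groups was narrow, 15.9 FPKM in the highest VC200 tree and 16.9 FPKM in the lowest VC20 tree.

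PHB gene *Gb_18245* had 41.0, 52.9 and 31.0 FPKM in VC20, 18.7, 44.6 and 9.98 FPKM in VC200 and 39.4, 32.9 and 47.9 FPKM in VC600. PHV gene *Gb_10259* had 2.999, 6.10 and 3.90 FPKM in VC20, 2.74, 5.60 and 0.795 FPKM in VC200 and 4.38, 1.27 and 5.17 FPKM in VC600. For both genes VC200B reached VC20 levels, whereas VC200C did not. VC200A lay under every VC20 tree for both, but for *Gb_10259* by 132 fragments in VC200A against 141 in VC20A, a gap within counting error. The lowest values of the 5 genes correspond to 33 fragments for *Gb_10259* in VC200C, 51 for *Gb_10259* in VC600B and 106 for *Gb_22761* in VC200C. The highest corresponds to 3298 fragments, for *Gb_18245* in VC20B.

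**Figure D1:**
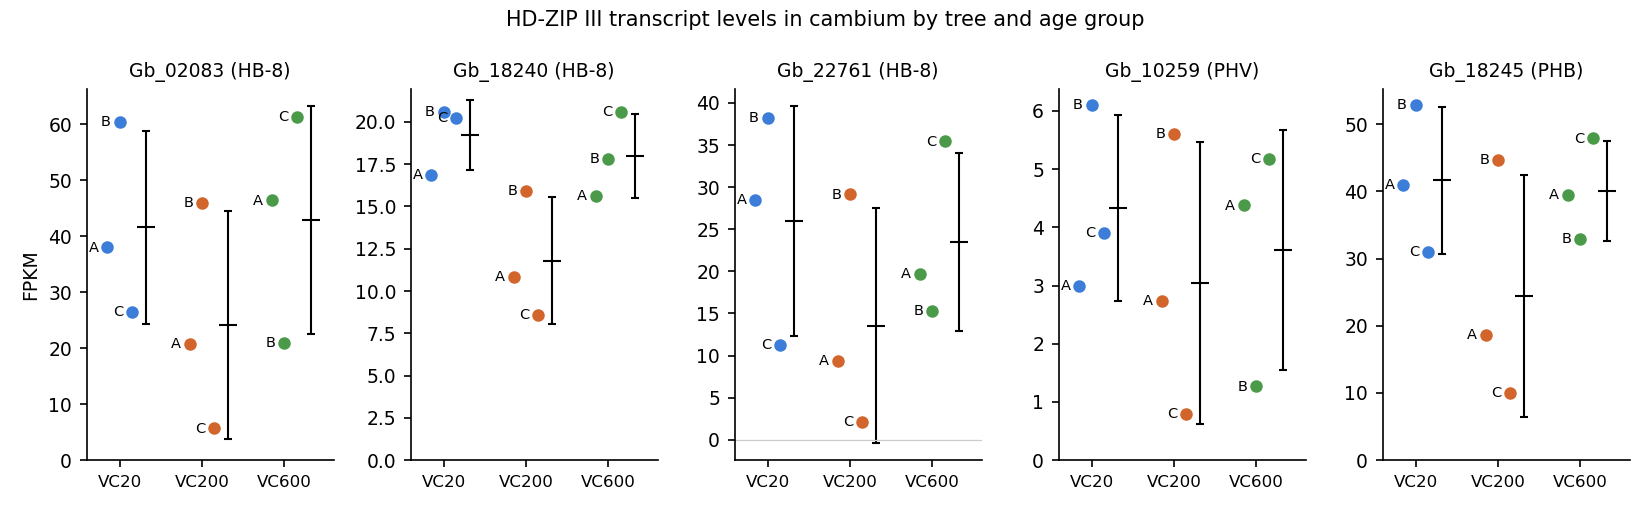
FPKM of each HD-ZIP III gene in every library, with 1 panel per gene, points lettered by tree and coloured by age group, and a black bar with whiskers for the mean ± SD of 3 trees. VC200C is the lowest point in every panel, and only for *Gb_18240* do all VC200 points (8.59 to 15.9 FPKM) lie under the VC20 points (16.9 to 20.6 FPKM).

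The lowest tree of all and the highest tree of each group were shared by the 5 genes. VC200C was the lowest of the 9 libraries for all 5, as it was for 37% of all tested genes. VC200C held 8.26% of the VC20 mean for *Gb_22761*, 13.6% for *Gb_02083*, 18.3% for *Gb_10259*, 24.0% for *Gb_18245* and 44.7% for *Gb_18240*, and 23.1% of tested genes had under 50% of their VC20 mean there. VC20B was the highest of VC20, VC200B of VC200 and VC600C of VC600 for each of the 5 genes, as they were for 38.7, 44.4 and 38.1% of tested genes. These positions together, with VC200C lowest of all and these trees highest in their groups, held for 7.14% of tested genes. They were picked from the values of the 5 genes. VC200A and VC200C both lay under every VC20 library for all 5 genes, an arrangement found in 29.3% of tested genes. VC200B lay above the VC20 mean for 4 of the 5 genes (45.9% of tested genes). For *Gb_18240* it was at 82.7% of that mean and under every VC20 library, as 34% of tested genes were. In VC600 the lowest tree was VC600B for 4 genes and VC600A for *Gb_18240*, and in VC20 it was VC20A for 2 genes and VC20C for 3. The VC200 group thus held 1 tree near the level of young trees and 2 under it, with VC200A within counting error of VC20A for *Gb_10259*.

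**Figure D2:**
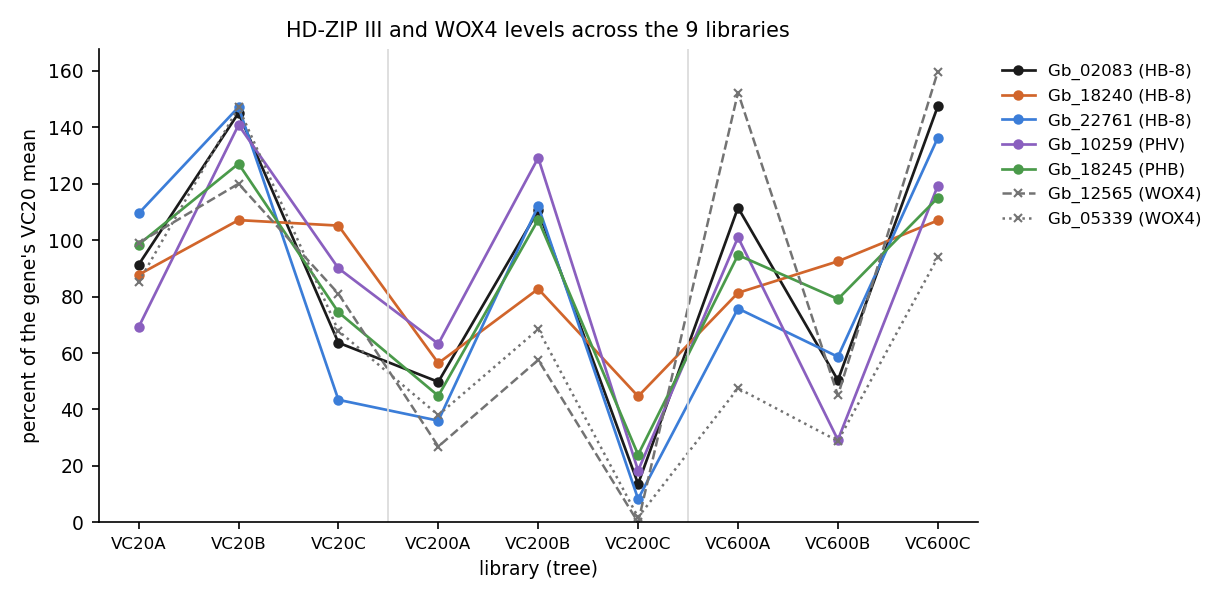
Level of each HD-ZIP III gene (solid lines) and of the WOX4 genes (grey dashed and dotted lines) in each of the 9 libraries, as a percent of the gene's own mean in the VC20 trees. All 5 HD-ZIP III genes dip at VC200A, return at VC200B to 82.7 to 129% of the VC20 mean and reach their minimum at VC200C, and at VC600B *Gb_18240* stays at 92.5% while *Gb_10259* is at 29.2%.

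The comparison of older with young trees asks whether HD-ZIP III transcripts change as ginkgo cambium ages. In VC200 vs VC20, all 5 genes had lower means in VC200: 24.1 ± 20.4 against 41.6 ± 17.2 FPKM for *Gb_02083* (VC200 and VC20, SD, n = 3 each), 13.6 ± 13.97 against 26.0 ± 13.7 FPKM for *Gb_22761*, and 24.4 ± 18.04 against 41.6 ± 10.97 FPKM for *Gb_18245*. The means were 11.8 ± 3.75 against 19.2 ± 2.05 FPKM for *Gb_18240* and 3.05 ± 2.42 against 4.34 ± 1.60 FPKM for *Gb_10259*. In limma on log2(FPKM + 1), with Benjamini-Hochberg adjustment over all tested genes, none of the 5 was called, a call being an adjusted p under 0.05 together with a change of 1 or more on the log2 scale. In this comparison 0.99% of all tested genes were called. The log2 fold changes were -1.28 (standard error 0.77, adjusted p = 0.374) for *Gb_22761*, -1.09 (standard error 0.68, adjusted p = 0.391) for *Gb_02083* and -0.96 (standard error 0.46, adjusted p = 0.277) for *Gb_18245*. They were -0.70 (standard error 0.23, adjusted p = 0.149) for *Gb_18240* and -0.55 (standard error 0.53, adjusted p = 0.580) for *Gb_10259*.

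*Gb_18240* was the only member with an unadjusted p under 0.05 in VC200 vs VC20, in limma as well as in edgeR and DESeq2 on recovered fragments, and neither of these tools called a member. An unadjusted p under 0.05 was reached by 20.1% of all tested genes in limma, and groups that did not overlap, with VC200 lower, by 21.1%, so 1 of 5 is close to the background for both. With array weights 3 of 5 had an unadjusted p under 0.05 (*Gb_18240*, *Gb_22761* and *Gb_18245*), beside 38.1% of all tested genes. All 5 log2 fold changes were below 0, as were those of 60.9% of tested genes. The study had already reported the 5 as lower in old trees of these samples, so their shared direction is no separate result. The 95% confidence intervals were -1.21 to -0.18 for *Gb_18240*, -1.99 to 0.08 for *Gb_18245*, -2.64 to 0.46 for *Gb_02083*, -3.03 to 0.46 for *Gb_22761* and -1.75 to 0.65 for *Gb_10259*. The median log2 fold change of the 5 was -0.96 in limma, beside a median of -0.12 over all tested genes. In edgeR and DESeq2 on recovered fragments it was -0.68 and -0.67, and the lowest member was at -0.85 in both. Quantile normalization moved the all-gene median to 0.00 and the median of the 5 to -0.86. Relative to the all-gene median, the fitted differences of the 5 were -1.17 to -0.43.

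Without VC200C the median of the 5 was -0.45, beside -0.07 for all genes, and the log2 fold changes were -0.51 for *Gb_18240*, -0.48 for *Gb_18245*, -0.45 for *Gb_22761*, -0.34 for *Gb_02083* and -0.06 for *Gb_10259* (limma, smallest adjusted p = 0.208). *Gb_18240* was thus the gene that moved least when this tree was left out and *Gb_22761* the one that moved most. The 5 values stayed below 0 under each of the 17 alternatives run for this comparison. With array weights, which weight libraries by how far they scatter, *Gb_18240* had an adjusted p of 0.0336 and a log2 fold change of -0.59, under the fold limit.

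**Figure D3:**
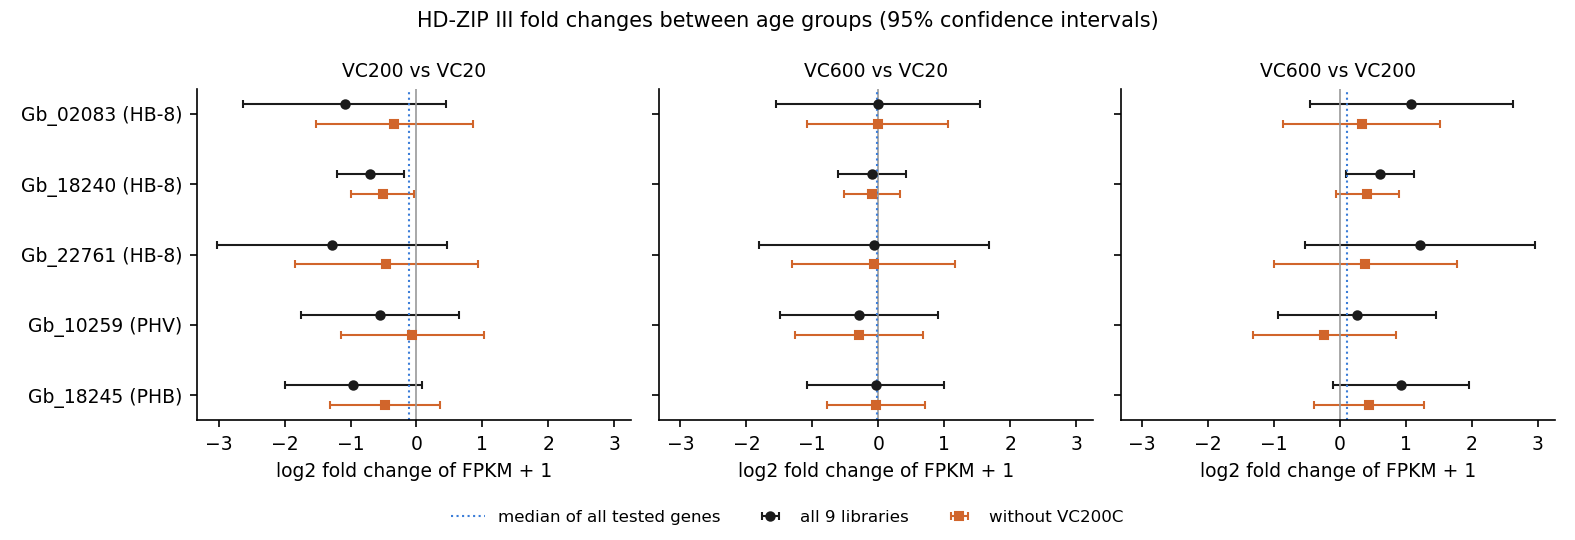
Log2 fold change of FPKM + 1 for each HD-ZIP III gene in 3 comparisons, from all 9 libraries (black circles) and without VC200C (orange squares), with 95% confidence intervals from limma and the median of all tested genes as a dotted line. In VC200 vs VC20 the interval stays under 0 only for *Gb_18240*, and without VC200C the estimates of all 5 genes come closer to 0.

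In VC600 vs VC20 the means of the 2 groups were close. They were 42.9 ± 20.4 FPKM in VC600 and 41.6 ± 17.2 FPKM in VC20 for *Gb_02083*, 40.1 ± 7.49 FPKM in VC600 and 41.6 ± 10.97 FPKM in VC20 for *Gb_18245*, 23.5 ± 10.6 and 26.0 ± 13.7 FPKM for *Gb_22761*, 18 ± 2.47 and 19.2 ± 2.05 FPKM for *Gb_18240*, and 3.61 ± 2.06 and 4.34 ± 1.60 FPKM for *Gb_10259* (SD, n = 3 each). The log2 fold changes were -0.30 to -0.01 with a median of -0.07, beside -0.02 over all tested genes, and that of *Gb_02083* was above 0 under quantile normalization and in edgeR and DESeq2. No member was called (limma, smallest adjusted p = 0.945), none had an unadjusted p under 0.05 in limma, edgeR or DESeq2, and 0.00912% of all tested genes were called (6.78% had an unadjusted p under 0.05 in limma). All 5 log2 fold changes were below 0 in limma, as were those of 52.2% of tested genes. The groups overlapped for all 5 genes, whereas VC600 lay wholly below VC20 for 8.82% of tested genes and wholly above it for 7.28%. The intervals do not show that young and oldest trees have the same level: for *Gb_18240*, the most precise, it was -0.61 to 0.42, and for *Gb_22761*, the least precise, -1.82 to 1.67.

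In VC600 vs VC200 all 5 log2 fold changes were above 0, from 0.25 for *Gb_10259* to 1.21 for *Gb_22761*, with a median of 0.92 beside 0.11 for all tested genes, of which 36.5% were below 0. The median of the 5 was 0.64 in edgeR and in DESeq2 on recovered fragments. No member was called (limma, smallest adjusted p = 0.428, for *Gb_18240*), and 0.00456% of all tested genes were. *Gb_18240* again had the only unadjusted p under 0.05, in limma as in edgeR and DESeq2 (10.2% of tested genes in limma), with a log2 fold change of 0.60 and an interval of 0.09 to 1.12. The highest VC200 value of this gene, 15.9 FPKM in VC200B, lay above the lowest VC600 value, 15.6 FPKM in VC600A. The groups overlapped for the other 4 genes too, and VC600 lay wholly above VC200 for 11.1% of tested genes and wholly below it for 3.18%. Without VC200C the median was 0.38 and *Gb_10259* was at -0.24, and none of the 5 had an unadjusted p under 0.05. This comparison shares its VC200 libraries with VC200 vs VC20, so the 2 sets of values are not independent.

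With VC200 and VC600 averaged (old vs VC20), the log2 fold changes were -0.68 for *Gb_22761*, -0.55 for *Gb_02083*, -0.50 for *Gb_18245*, -0.42 for *Gb_10259* and -0.40 for *Gb_18240*, with a median of -0.50 beside -0.06 for all tested genes. Without VC200C they were -0.26, -0.17, -0.26, -0.18 and -0.30 for the genes in that order, with a median of -0.26 beside -0.04. In edgeR and DESeq2 on recovered fragments of all libraries, the median of the members was -0.34 and -0.33. With all libraries no member was called (limma, smallest adjusted p = 0.377), none had an unadjusted p under 0.05 in limma, edgeR or DESeq2, and 0.274% of all tested genes were called (15.1% had an unadjusted p under 0.05 in limma). Of all tested genes 57.7% were below 0 in this comparison. The old and VC20 libraries overlapped for each member, whereas the old libraries lay wholly below VC20 for 5.39% of tested genes and wholly above for 2.64%.

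The order of the group means was VC20, then VC600, then VC200 for 4 of the genes, and VC600, then VC20, then VC200 for *Gb_02083*. Between neighbours in that order, the limma interval lay off 0 only for VC600 against VC200 in *Gb_18240* (0.09 to 1.12), whose trees overlapped and whose interval included 0 without VC200C (-0.06 to 0.89). Spread within a group was widest in VC200, where the coefficient of variation was 103% for *Gb_22761*, 84.4% for *Gb_02083*, 79.3% for *Gb_10259*, 73.9% for *Gb_18245* and 31.8% for *Gb_18240*, beside a median of 26.6% over all tested genes. In VC20 it was 10.7% for *Gb_18240* and 26.4 to 52.5% for the other 4 genes, beside a median of 19.2%. In VC600 it was 13.7% for *Gb_18240*, 18.7% for *Gb_18245* and 45.2 to 57.2% for *Gb_22761*, *Gb_02083* and *Gb_10259*, beside a median of 21.0%.

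Levels of the 5 genes were positively correlated from tree to tree, least so for *Gb_18240* and *Gb_10259*. Over the 9 libraries, the 10 pairs of genes had Pearson correlations of log2(FPKM + 1) from 0.66 (*Gb_18240* and *Gb_10259*) to 0.98 (*Gb_22761* and *Gb_18245*), with a median of 0.86. On deviations from the group means, which leave age out, they were 0.74 to 0.97. Without VC200C the range widened to 0.31 to 0.93 with a median of 0.68, and the lowest pair was again *Gb_18240* and *Gb_10259*. *Gb_22761*, *Gb_18245* and *Gb_02083* formed the tightest trio, with correlations of 0.87 to 0.93 in the 8 libraries. These correlations describe trees that share age groups, library by library scaling and possibly cell composition.

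Summed over the 5 genes, HD-ZIP III transcripts came to 133 ± 42.9 FPKM in VC20, 76.9 ± 58.4 FPKM in VC200 and 128 ± 41.1 FPKM in VC600 (SD, n = 3 each). The VC200 sums were 62.3, 141 and 27.2 FPKM in trees A, B and C, so 1 VC200 tree lay inside the VC20 range of 92.9 to 178 FPKM and the other 2 below it. *Gb_18245* held the steadiest share of the sum, 28.1 to 37.3% in every library. The share of *Gb_18240* was 31.6% in VC200C and 11.3% in VC200B, and that of *Gb_22761* ran the other way, 7.91% in VC200C and 20.6% in VC200B. *Gb_02083* or *Gb_18245* was the most abundant of the 5 in each library. *Gb_10259* held 1.44 to 4.40%.

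**Figure D4:**
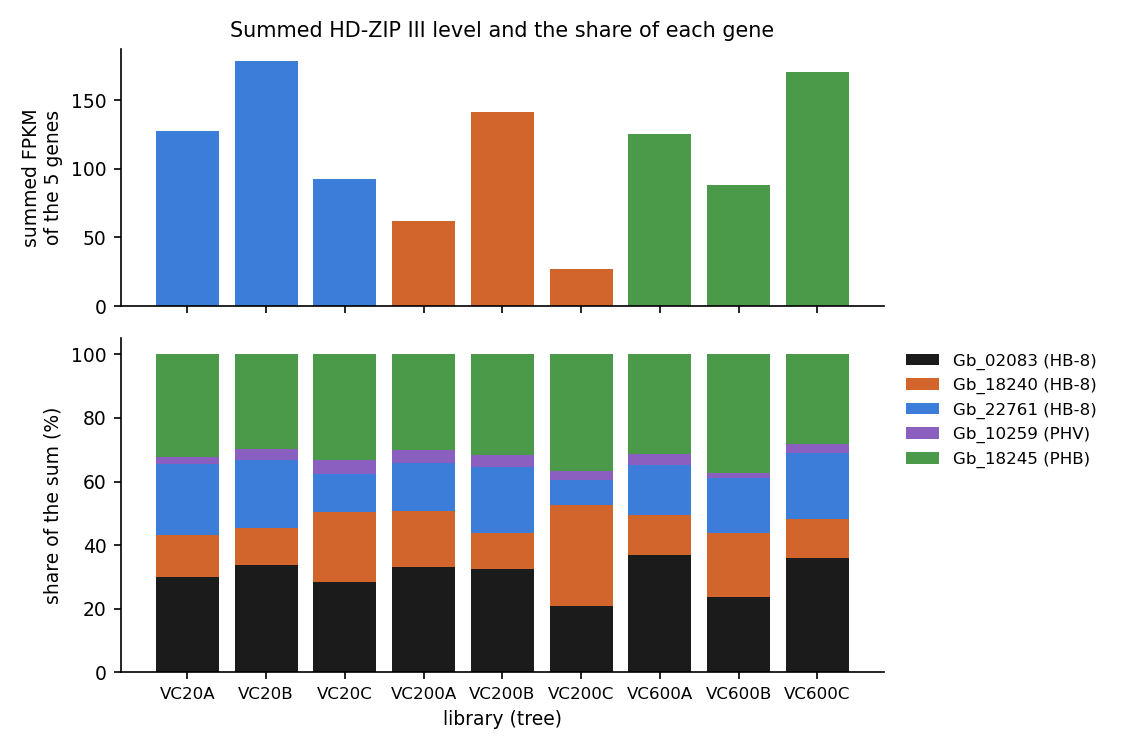
Upper panel, summed FPKM of the 5 HD-ZIP III genes in each library, with bars coloured by age group. Lower panel, the percent of that sum held by each gene: *Gb_18240* takes its largest share, 31.6%, in VC200C, where the sum is lowest at 27.2 FPKM.

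The genes most like the HD-ZIP III genes were found by the correlation of log2(FPKM + 1) with the mean z-score of the 5 over 9 libraries. The highest values belonged to *Gb_18746* (r = 0.99), *Gb_26663*, *Gb_25270*, *Gb_16923* and *Gb_30406* (each r = 0.98), none of which the files or the supplementary lists annotate. *Gb_18746* had 112, 130 and 93.6 FPKM in VC20, 66.6, 106 and 29.3 FPKM in VC200 and 94.0, 75.1 and 123 FPKM in VC600, and without VC200C its correlation was 0.97. Many genes shared the pattern, since 483 of the 21919 other tested genes reached 0.9, and the median r was 0.30. For single members, the nearest gene was *Gb_39049* for *Gb_22761*, *Gb_37274* for *Gb_02083*, *Gb_00947* for *Gb_18240*, *Gb_08405* for *Gb_18245* and *Gb_40252* for *Gb_10259*, with correlations of 0.98 to 0.99. Another HD-ZIP III gene ranked among the 3 nearest genes of *Gb_18245* only, where *Gb_22761* was at rank 3. For *Gb_18240* the nearest member, *Gb_18245*, ranked 305.

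Among the other genes of cambial regulation, the WOX4 genes came closest to the family. WOX4 is a homeobox gene that in Arabidopsis maintains dividing cells in the cambium, and it serves here as the marker of cambial cells. *Gb_05339* had a correlation of 0.95 with the mean z-score of the HD-ZIP III genes and *Gb_12565* of 0.92, more than 99.6 and 98.5% of tested genes (0.84 and 0.81 without VC200C). *Gb_05339* had 21.5, 37.2 and 17.2 FPKM in VC20, 9.62, 17.3 and 0.4496 FPKM in VC200 and 12.02, 7.29 and 23.7 FPKM in VC600. *Gb_12565* was listed at 0 FPKM in VC200C, and the 2 WOX4 genes together had 0.4496 FPKM in that library, against 8.97 to 41.7 FPKM in the other 8. The log2 fold changes in VC200 vs VC20 were -1.93 (adjusted p = 0.248) and -1.35 (adjusted p = 0.176) for the 2 genes in limma, and neither was called. Without VC200C they were -0.84 for *Gb_05339* and -0.90 for *Gb_12565*.

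Markers of dividing cells and of xylem also had lower sums in VC200 than in VC20. The 7 cell division genes (cyclins, CDKB1 and histone H3), which the study names as changing in these samples, summed to 20.0 to 49.3 FPKM in VC200 and 137 to 166 FPKM in VC20, with 45.5 to 92.6 FPKM in VC600. All 7 had log2 fold changes below 0 in VC200 vs VC20 (median -1.71), and 2 cyclins were called (0 genes of the list in edgeR and without VC200C, 5 in DESeq2). *Gb_11201* fell to 1.08 ± 0.621 FPKM in VC200, against 28.9 ± 4.31 FPKM in VC20 (limma adjusted p = 0.0497), and *Gb_30101* fell to 3.46 ± 1.98 FPKM in VC200, against 12.8 ± 2.36 FPKM in VC20 (limma adjusted p = 0.0491). Both calls are close to the threshold: leaving out any single library lost that of *Gb_30101* (limma adjusted p of 0.0524 to 0.162), and leaving out any library but VC600C lost that of *Gb_11201* (0.0555 to 0.159). The 17 xylem secondary wall genes, 16 of them from the study's lists of differing genes, summed to 53.6 to 92.6 FPKM in VC200, 168 to 333 FPKM in VC20 and 128 to 216 FPKM in VC600. Of 13 tested, 12 had log2 fold changes below 0 in VC200 vs VC20 (median -1.87), 1 was above 0 and 1 was called (0 in edgeR and without VC200C, 12 in DESeq2), the glucuronoxylan methyltransferase gene GXM2 (*Gb_12266*, 13.6 ± 4.35 FPKM in VC200 and 42.0 ± 12.3 FPKM in VC20, limma adjusted p = 0.0475, and 0.0539 to 0.162 without any single library). In VC200C 1 of the 2 WOX4 genes, 5 of the 17 wall genes and 0 of the 7 division genes were at 0. Of these wall genes, *Gb_31675*, *Gb_14613* and *Gb_14614* failed the filter on low values. *Gb_00462* and *Gb_14614* were at 0 in all VC200 trees. *Gb_11065* was at 0 in VC200C and at 1.22 and 1.35 FPKM in VC200A and VC200B. In these bulk samples, fewer cambial or xylem cells and less RNA per cell cannot be told apart, and the part of either in the HD-ZIP III values was not tested.

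HD-ZIP genes of other classes gave values on the other side of 0. The study's lists hold 4 of them, HAT5, HOX27, ATHB-13 and HAT7, named for their best protein match, and 3 of these came from its lists of differing genes. All 4 had log2 fold changes above 0 in VC200 vs VC20 (median 0.84), or 3 of 4 with array weights or without VC200C. HAT5 (*Gb_16185*) rose to 88.3, 54.4 and 54.4 FPKM in VC200, against 28.9, 24.8 and 32.3 FPKM in VC20, and had 31.1, 28.0 and 25.0 FPKM in VC600 (log2 fold change of 1.14 with a standard error of 0.21 between VC200 and VC20, limma adjusted p = 0.0497, not called in edgeR). The call held without VC200C (limma adjusted p = 0.0477) and was lost without any other single library (0.0617 to 0.162). HOX27 (*Gb_06016*) had 22.7, 29.3 and 56.6 FPKM in VC200 and 15.998, 18.03 and 9.65 FPKM in VC20, with a log2 fold change of 1.2 (limma adjusted p = 0.132), or 0.83 without VC200C. For both genes the VC200 values lay above every VC20 value, as they did for 7.43% of all tested genes.

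Of the 16 tested auxin and cytokinin genes, 13 had log2 fold changes below 0 in VC200 vs VC20 (median -0.54, 12 of 16 under quantile normalization, in edgeR and in DESeq2), and 2 were called lower, both of which the study names as lower in these samples: the auxin-responsive gene *Gb_20590* (0.433 ± 0.382 FPKM in VC200 and 11.8 ± 6.35 FPKM in VC20, limma adjusted p = 0.0289) and the auxin-induced gene *Gb_29218* (0.199 ± 0.284 FPKM in VC200 and 10.48 ± 5.75 FPKM in VC20, limma adjusted p = 0.0475). The call of *Gb_20590* was lost without VC20A, VC20B, VC20C, VC200A or VC200B (limma adjusted p of 0.0536 to 0.117) and that of *Gb_29218* without any single library but VC600C (0.0597 to 0.162). With 1 gene called in edgeR and 4 in DESeq2, the count for this list depended on the tool. Of the 5 tested WOX and KNOX genes 3 were below 0 and 2 above in VC200 vs VC20 (2 below and 3 above under quantile normalization and without VC200C), and none was called in limma or edgeR, 1 in DESeq2. Of the 3 tested LOB domain genes, LBD40 genes *Gb_36942* (62.7 ± 30.3 FPKM in VC200 and 9.62 ± 7.83 FPKM in VC20) and *Gb_36943* (37.4 ± 43.6 FPKM in VC200 and 3.68 ± 1.09 FPKM in VC20) were above 0 and neither was called in limma (adjusted p = 0.0558 and 0.133) or edgeR, both in DESeq2. *Gb_36943* had 87.4 FPKM in VC200C and 7.01 and 17.8 FPKM in the other VC200 trees, and its log2 fold change was 2.37 with VC200C and 1.42 without it. In VC600 vs VC20 no gene of these lists was called in limma or edgeR, and DESeq2 called 1 higher, *Gb_29421* of the xylem secondary wall list, a gene named after its values were seen.

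The study named these 5 genes as predicted targets of miR166 and miR165. Their shared pairing in the deposited target predictions follows from that choice and is no separate link between them. Of the genes in the prediction table, the 5 HD-ZIP III genes, and no other, were paired with the same 16 miR166 and miR165 entries. Another 25 genes were paired with at least 1 of the 16 entries, with a median of 1 and at most 9. *Gb_02083* was also paired with novel_169 and *Gb_22761* with novel_311, an entry with 1 to 3 reads per library and not tested. Many of the 16 entries count the same reads: aly-miR165a-3p and ath-miR165a-3p have identical counts, ath-miR166a-3p, cpa-miR166e and zma-miR166h-3p differ by at most 0.0647% in any library, and mtr-miR166b, vvi-miR166a, osa-miR166g-3p and ptc-miR166n by at most 0.299%. They are therefore not independent measurements of miR166.

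In the 6 small RNA libraries, ath-miR166a-3p had 35817 and 33390 CPM in VC20 (trees A and B, CPM being read counts scaled to library size with TMM factors), 45423 and 49058 CPM in VC200 and 118479 and 158497 CPM in VC600. The VC600 values were the highest, and those of VC200 lay above those of VC20. vvi-miR166a had 13843 and 11612 CPM in VC20, 18614 and 17256 CPM in VC200 and 19720 and 23719 CPM in VC600. In VC600 vs VC20, 10 of the 17 tested entries paired with an HD-ZIP III gene were called, all higher (edgeR quasi-likelihood test, Benjamini-Hochberg adjustment, adjusted p under 0.05 and a log2 fold change over 1), beside 46.5% of all 357 tested entries called in either direction and 19% called higher. Several of the 17 count the same reads, so they are not independent members. With the identical pair taken once, 9 of the 15 entries shared by all HD-ZIP III genes were called. ath-miR166a-3p rose by a log2 fold change of 2.0 (edgeR adjusted p = 0.000456) and mes-miR166i by 2.43 (edgeR adjusted p = 0.00508), whereas vvi-miR166a, at 0.77 (edgeR adjusted p = 0.0258), stayed under the fold limit. The count of 10 became 14 with relative log expression scaling, 7 with library totals alone and 5 without VC20A. The all-entry median log2 fold change moved to -0.02 with relative log expression scaling and to -0.76 with library totals alone, against -0.26 in the fit given here. In VC200 vs VC20 none was called (edgeR, 1 with an unadjusted p under 0.05, 0 called by DESeq2), with 8.12% of all entries called and 2.8% called higher. All 17 log2 fold changes were above 0 (15 of 17 with library totals alone), beside an all-entry median of -0.05. Since several of the 17 count the same reads, their shared sign is not that of 17 separate miRNAs. In VC600 vs VC200, 7 entries were called higher, and 4 without VC200A or without VC200B, beside 16.2% of all entries called higher and 40.3% called in either direction. In old vs VC20, 7 were called higher beside 10.4% of all entries called higher and 25.8% in either direction, and 0 without VC20A or without VC20B, 4 without VC200A, VC200B or VC600B, 4 with the replicate block and 0 with library totals alone.

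Set beside each other in the same trees, the miRNA and the HD-ZIP III values ran in opposite order for some trees and not for others. A relation between them was not tested. In trees A and B the summed HD-ZIP III level was 127 and 178 FPKM in VC20, 62.3 and 141 FPKM in VC200 and 126 and 88.2 FPKM in VC600. VC20B had the highest HD-ZIP III sum with the lowest ath-miR166a-3p level, 33390 CPM. VC600B had the highest ath-miR166a-3p level, 158497 CPM, with a sum of 88.2 FPKM. VC200A, however, had the lowest HD-ZIP III sum of the 6 trees with an ath-miR166a-3p level of 45423 CPM. VC600A had an HD-ZIP III sum close to that of VC20A with an ath-miR166a-3p level of 118479 CPM. VC200C, the tree with the lowest HD-ZIP III levels, has no small RNA library among those analysed here. Predicted pairing in the deposited table is not itself a measured cut. From degradome sequencing of mixed ages, the study reported cuts by miR166 family members, with *Gb_02083*, *Gb_10259* and *Gb_18245* among its examples. The degradome library was not analysed here.

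**Figure D5:**
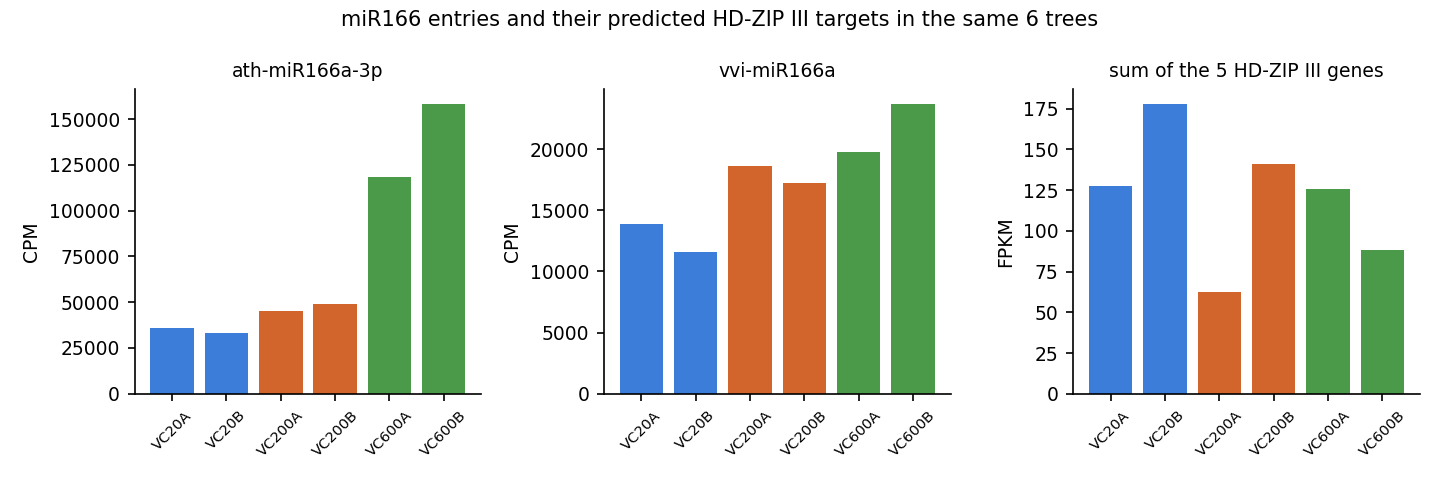
TMM-scaled CPM of ath-miR166a-3p (left) and vvi-miR166a (middle), and summed FPKM of the 5 HD-ZIP III genes (right), in the 6 trees with both kinds of library, with bars coloured by age group. The miRNA bars are highest in VC600 (118479 and 158497 CPM for ath-miR166a-3p), while the HD-ZIP III sum is lowest in VC200A (62.3 FPKM). In VC20B the sum is highest (178 FPKM) and the ath-miR166a-3p bar lowest (33390 CPM).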

How the data were processed

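The authors deposited FPKM values per gene for 9 RNA-seq libraries, read counts per miRNA entry for 6 small RNA libraries (1184091 to 1842055 counted reads), and a table of predicted targets. The submitters' processing notes name TopHat2 2.0.12 and Cufflinks 2.1.1, whereas the study's methods name HISAT. Deposited FPKM times gene length gave whole multiples of 1 fragment for 97.4% of values above 0 (tolerance 0.02), so fragments were recovered for 43152 genes.

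Genes that reached 1 FPKM in 3 or more libraries were tested with limma 3.58.1 (R 4.3.3, trend) on log2(FPKM + 1), a pseudocount of 1, in 1 fit of 9 libraries. Fold changes on this scale understate changes of low genes. Genes with an adjusted p under 0.05 and a log2 fold change of at least 1 were called. miRNA counts were tested with edgeR 4.0.16, and DESeq2 1.42.0 served as an alternative for counts and fragments. The main limma fit, edgeR and DESeq2 on fragments and edgeR on miRNA counts were run on simulated data without an outlying library. The other settings were not. The letters A, B and C name trees within a group. The limma p-values set a group difference against the spread between these trees, pooled over the age groups. For the 5 members that spread was widest in VC200. Members and lists were chosen with earlier results of these data known. Named genes are the 5 members, the nearest genes by correlation, called list genes or otherwise the 2 with the largest change in VC200 vs VC20, and the paired miRNA entries. The deposited table holds no gene descriptions, so phloem markers were not looked up. Intervals cover 95%.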

Additional observations from a re-analysis of the deposited data

How the results depend on the processing

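No HD-ZIP III gene was called in any comparison under any alternative run (quantile normalization, pseudocount 0.1, no filter, only the groups compared, array weights, replicate block, edgeR and DESeq2 on recovered fragments, no minimum fold change and leaving out each library in turn). The signs of all 5 genes held under each of these in VC200 vs VC20 and in old vs VC20. In VC600 vs VC20 that of *Gb_02083* turned to 0.0012 with quantile normalization, 0.0735 in edgeR and 0.0755 in DESeq2. With 1 library left out, the ranges in VC600 vs VC20 were -0.32 to 0.43 for *Gb_02083*, -0.56 to 0.28 for *Gb_22761*, -0.57 to 0.15 for *Gb_10259* and -0.23 to 0.15 for *Gb_18245*. In VC600 vs VC200, *Gb_10259* turned to -0.15 with array weights and ranged from -0.24 to 0.70 with 1 library left out. The causes were not tested.

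Counts over all genes depended on the tool. In VC200 vs VC20, 217 genes were called by limma, 55 by edgeR, 1643 with array weights, 75 without a filter, 104 with only the groups compared and 58 with the replicate block. With 1 library left out, limma called 0 to 224 genes in VC200 vs VC20, 0 to 21 in VC600 vs VC20, 0 to 16 in VC600 vs VC200 and 0 to 99 in old vs VC20. In VC600 vs VC20 the counts in the same order of settings were 2, 0, 47, 2, 4 and 0, and in VC600 vs VC200 they were 1, 1, 383, 2, 4 and 0 (5 with a pseudocount of 0.1). In old vs VC20, 60 were called by limma, 40 by edgeR, 532 with array weights, 36 without a filter and 22 with the replicate block, and a fit of only the groups compared was not run because it is the same fit. DESeq2 called 3.55% of its tested genes in VC200 vs VC20, 0.522% in VC600 vs VC20, 1.09% in VC600 vs VC200 and 1.76% in old vs VC20.

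For miRNA entries paired with an HD-ZIP III gene, old vs VC20 gave 0 calls with library totals alone and 4 with the replicate block, against 7. With 1 library left out the counts were 5 to 10 in VC600 vs VC20, 4 to 7 in VC600 vs VC200 and 0 to 7 in old vs VC20. The block changed no HD-ZIP III call. Same letters in different age groups do not mark the same tree. Deviations from the group means of same-letter libraries correlated at -0.24 to 0.28, over 0.1 in 2 of 9 pairs. Whether same-letter libraries shared a batch was not tested. The 3 trees per group and the single VC200 tree with young-tree levels limit what a difference of this size can show.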
